A study of Mus musculus with 4 samples.

Results

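The genes described here are 7 genes best known from Schwann cells, the glia that wrap peripheral axons, and from the myelin sheath: Mbp, Pmp22, Mag, Sox10, S100b, Kcna1 and Prx. They were taken by symbol from a table of 24328 genes, and each of the 7 symbols was found once. They were measured in sorted muscle stem cells (satellite cells) of the mouse, as polyadenylated RNA in 4 libraries, with 2 groups of 2 replicates. All mice carried 1 copy of Pax7CreERT2, a Cre recombinase made from the Pax7 locus, active in Pax7-expressing cells and switched on by tamoxifen, and all were perfused with paraformaldehyde before the cells were isolated. In the YFP group this allele was combined with ROSA26YFP/+ at 7 months of age, and in the DEK group with H11DEK-EGFP/+ at 4.5 months of age. Age, reporter and insertion site thus cannot be told apart from raised Dek. Whether the 2 replicates of a group are separate animals is not given, so the p-values cover only library-to-library spread, which may be technical.

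Values are FPKM, a level scaled to transcript length and library size, and the unit is inferred. Column totals ran from 541183 to 545123 FPKM, and Rn45s, the precursor of ribosomal RNA, made up 11.8 and 15.7% of them in YFP against 5.15 and 5.55% in DEK. Dek, the gene raised in the DEK group, had 512 and 504 FPKM in YFP against 3196 and 1639.5 FPKM in DEK. Transcripts of satellite cells were present in both groups. Of 12 identity genes, among them Pax7 (93.9 to 184 FPKM) and Myf5 (220 to 312 FPKM), none was at 0 in either group. Levels above 0 do not show how pure the sorted cells were.

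Sox10 is the transcription factor that specifies and maintains Schwann cells, and together with Egr2 it switches on the genes of the myelin sheath. Mbp coats the inner membrane faces of compact myelin, Pmp22 spans its membrane and is known for the nerve disease that follows from an altered gene dose, and Mag is an adhesion protein of the wrap that faces the axon. Prx, periaxin, joins Drp2 and dystroglycan (Dag1) on the outer Schwann cell membrane. S100b is a calcium-binding protein widely used as a Schwann cell marker, and Kcna1 is a potassium channel subunit of axons that lies beside the node of Ranvier. In muscle, Schwann cells follow the motor axons and cap the nerve terminals.

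RefSeq promoter windows (build GRCm38.p6) were matched for 4 of the 7 genes, Pmp22, Mag, S100b and Prx. The chromosome of Mbp was left out of this matching, so the absence of a Mbp window here says nothing about RefSeq. The 250 bases before the start are shown for Mag, Prx and Pmp22. In each of these genes both DEK values lay above both YFP values, and none of them passed the test described below. Pmp22 had the highest level of the 7 and the smallest fitted change of the 5 tested genes. Capitals mark matches, on either strand, to ACAANG, a core of the motif bound by Sox factors, or to GTGGGNG, a core of the motif bound by Egr factors. The windows are chr7:30914864-30915113 on the minus strand for the first of 3 Mag starts, chr7:27499074-27499323 on the plus strand for Prx, and chr11:63128732-63128981 on the plus strand for the first of 4 Pmp22 starts.
Mag: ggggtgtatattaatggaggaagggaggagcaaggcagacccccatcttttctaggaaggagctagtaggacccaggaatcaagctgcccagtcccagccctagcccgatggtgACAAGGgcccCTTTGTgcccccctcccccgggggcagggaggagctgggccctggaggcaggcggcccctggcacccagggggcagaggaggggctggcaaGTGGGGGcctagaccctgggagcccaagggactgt
Prx: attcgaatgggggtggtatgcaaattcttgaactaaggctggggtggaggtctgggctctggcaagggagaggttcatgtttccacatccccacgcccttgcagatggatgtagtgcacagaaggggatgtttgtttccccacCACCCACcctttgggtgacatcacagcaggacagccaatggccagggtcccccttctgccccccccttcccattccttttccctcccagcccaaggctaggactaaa
Pmp22: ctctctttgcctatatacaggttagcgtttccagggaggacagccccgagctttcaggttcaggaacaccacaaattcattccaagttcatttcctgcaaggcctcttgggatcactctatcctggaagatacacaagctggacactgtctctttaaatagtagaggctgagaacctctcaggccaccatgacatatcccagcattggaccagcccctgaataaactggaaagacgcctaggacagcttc
The Mag window held 2 matches to ACAANG in opposite orientation, the first of which began 136 bases and the other 126 bases before the start, and 1 match to GTGGGNG. The Prx window held 1 match to GTGGGNG on its minus strand and 0 matches to ACAANG, and the Pmp22 window held 0 matches to either. The window of S100b, whose groups overlapped, is not shown and held 1 match to ACAANG and 0 to GTGGGNG. Among 32851 RefSeq windows of the same length, 36.3% held ACAANG and 28.1% held GTGGGNG, so matches of this kind are common. The motifs do not overlap one another in these windows, and a match describes letters only. The expression table has 1 value per symbol and does not separate the starts of Mag or Pmp22.

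Of the 7 genes, 1 passed the test as higher in DEK, Mbp, and 0 passed as lower (0 also at an unadjusted p under 0.05). The test was limma on log2(FPKM + 1) over the 12179 genes with at least 1 FPKM in 2 or more libraries, adjusted by Benjamini-Hochberg, and a gene passed at an adjusted p under 0.05. Of all tested genes it called 4.57% higher and 3.21% lower, 557 of 948 calls being upward, against 479 of 986 after quantile normalization and 429 of 987 with Rn45s removed. An unadjusted p under 0.05 was common, at 3545 of the 12179 tested genes with both directions together. The unadjusted counts of the lists below are to be read beside that share. Mbp, Pmp22, Mag, Kcna1 and Prx reached the filter, while Sox10 and S100b did not and have values but no test. Kcna1 was under 1 FPKM in both YFP libraries and so reached the filter through the DEK libraries alone. In 6 of the 7 genes both DEK values lay above both YFP values, all but S100b, as did 32.9% of the 18329 genes above 0 in at least 1 library. With 2 libraries a group, an exact permutation test cannot give a p below 0.333, so no single gene can pass by that test. In bulk samples such as these, fewer cells of a type and less RNA per cell cannot be told apart.

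**Figure D1:**
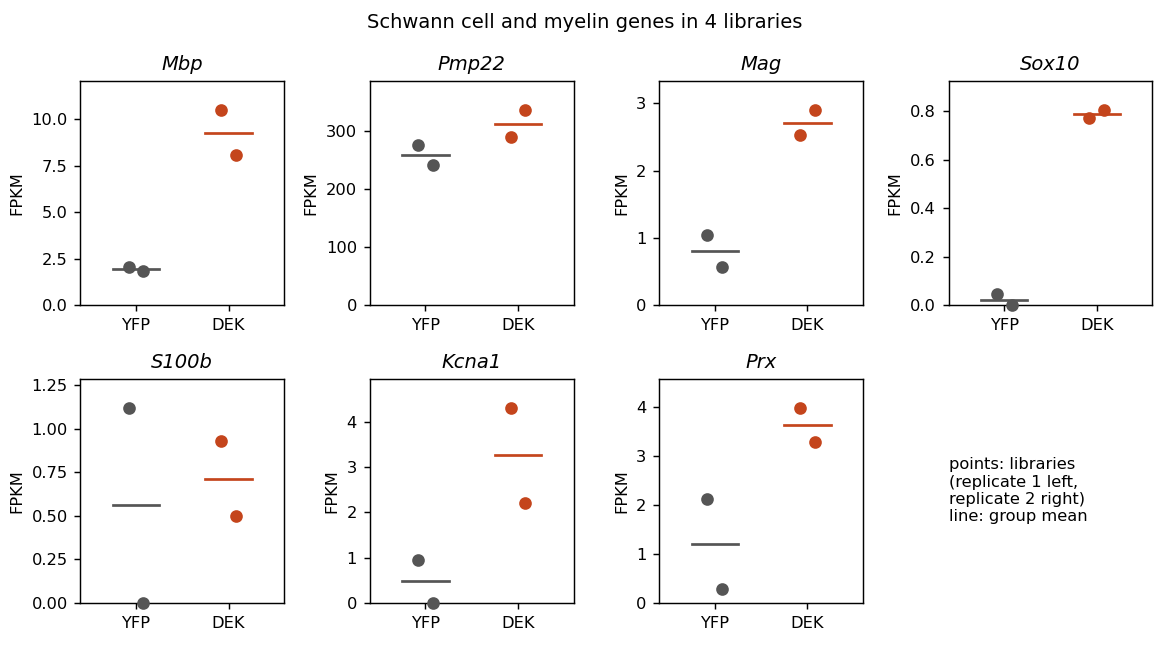
FPKM of each of the 7 genes (y axes start at 0 and differ in scale) in the YFP and DEK groups, with a point per library and a line at the group mean. The points of the groups are apart for each gene except S100b, and the panels of Sox10, S100b and Kcna1 each show YFP replicate 2 at 0.

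Mbp had the clearest difference of the 5 tested genes. It stood at 2.05 and 1.84 FPKM in YFP replicates 1 and 2, against 10.5 and 8.08 FPKM in DEK replicates 1 and 2. The YFP libraries were close together and both DEK libraries were well above them. The means were 1.95 ± 0.147 and 9.27 ± 1.69 FPKM (SD, n = 2 each), a ratio of 4.76. The log2 fold change on the log2(FPKM + 1) scale was 1.79 (SE 0.21, limma adjusted p = 0.0111). Among genes above 0 in the same library, its level lay at the percentiles 33.0 and 28.8 in YFP and 63.5 and 57.8 in DEK. The Mbp locus is also known to give golli transcripts from an upstream start, in immune cells and neurons among others, and the table does not separate them from myelin transcripts. In RefSeq the pseudogene Rpl21-ps8 and the noncoding gene Gm52337 lie within the span of Mbp, and the use of strand in counting is not given, so reads may be shared with them. Mbp no longer passed without YFP replicate 1 (adjusted p = 0.0711), without YFP replicate 2 (0.0880), without DEK replicate 1 (0.124) and without DEK replicate 2 (0.0708), and with no low filter (0.0556), each with limma, while the log2 fold change stayed between 1.62 and 1.96 in these fits. The fitted size depends on the added constant and was 2.19 with 0.1 and 1.03 with 5.

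Mag stood just outside the threshold. It was at 1.04 and 0.571 FPKM in YFP replicates 1 and 2, against 2.52 and 2.89 FPKM in DEK replicates 1 and 2. The groups did not overlap and the DEK libraries were nearly level with each other. The means were 0.803 ± 0.329 and 2.71 ± 0.262 FPKM (SD, n = 2 each), with a log2 fold change of 1.05 (SE 0.23, limma adjusted p = 0.0503). It passed with TMM scaling (0.0482), with an added value of 5 (0.0480, log2 fold change 0.41) and with limma without a variance trend (0.0405), while 0.1 gave a log2 fold change of 1.68.

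Pmp22 was of another order of abundance. It was at 277 and 241 FPKM in YFP replicates 1 and 2, against 289.9 and 336 FPKM in DEK replicates 1 and 2. The lower DEK value was close to the higher YFP value. The means were 259 ± 25.2 and 313 ± 32.9 FPKM (SD, n = 2 each), with a log2 fold change of 0.27 (SE 0.15, limma adjusted p = 0.294), so the difference did not pass. Its level was at or above the percentile 98.2 of detected genes in each library. Pmp22 is also made outside nerve, in fibroblasts and other growth-arrested cells. Mbp, which shares the compact sheath with it, stood at 0.740 and 0.763% of the Pmp22 level in YFP and at 3.61 and 2.40% in DEK.

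Prx differed between the YFP libraries more than between the groups' nearest values. It was at 2.12 and 0.288 FPKM in YFP replicates 1 and 2, against 3.99 and 3.30 FPKM in DEK replicates 1 and 2. Both DEK libraries were above both YFP libraries, with YFP replicate 2 far below the other three. The means were 1.20 ± 1.29 and 3.64 ± 0.488 FPKM (SD, n = 2 each), with a log2 fold change of 1.21 (SE 0.42, limma adjusted p = 0.130), and the difference did not pass. That fold change became 1.84 when YFP replicate 1 was omitted, 0.57 when YFP replicate 2 was, and 2.01 with 0.1 added in place of 1, and none of these fits passed. The binding partners of periaxin were abundant in both groups, with Drp2 at 113 and 125 FPKM in YFP against 99.2 and 95.7 in DEK. The other partner, Dag1, was at 962 and 875 FPKM in YFP against 1100 and 1419 in DEK, and muscle cells are known to carry it too. Neither passed the test (limma adjusted p = 0.224 for Drp2 and 0.176 for Dag1), and Prx stood at 0.231 to 4.02% of the Drp2 level over the 4 libraries. The noncoding gene Gm15541 overlaps Prx in RefSeq, so reads may be shared there too. Dag1 was chosen after its values were seen, and Drp2 came under the rule for named genes only once its list had been shortened.

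Kcna1 was at 0.953 FPKM in YFP replicate 1 and listed at 0 in YFP replicate 2, against 4.30 and 2.21 FPKM in DEK replicates 1 and 2. The groups did not overlap, though the DEK libraries were far apart. Its log2 fold change of 1.56 (SE 0.40, limma adjusted p = 0.0700) did not pass, and with a library at 0 its size depends on the added 1, with 3.30 for an added 0.1 and 0.59 for 5. With the replicate number as a block it passed (adjusted p = 0.0312). Of the channel's companions at the juxtaparanode, Kcna2 was at 0.899 to 1.68 FPKM and the adhesion protein gene Cntnap2 at 0.00762 to 0.101 FPKM over the 4 libraries. Both were chosen after their values were seen.

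Sox10 and S100b stayed near or under 1 FPKM. Sox10 was at 0.0460 FPKM in YFP replicate 1, listed at 0 in YFP replicate 2, and at 0.770 and 0.803 FPKM in the DEK libraries. The DEK libraries were nearly level and both above YFP (exact permutation p = 0.333, the smallest possible). With no low filter, which also lets Sox10 into the test, it passed limma (adjusted p = 0.0377) while Mbp did not. S100b was at 1.12 FPKM in YFP replicate 1, listed at 0 in YFP replicate 2, and at 0.930 and 0.498 FPKM in the DEK libraries. The groups overlapped and the highest value was in YFP (exact permutation p = 1), so of the 7 genes S100b alone showed no separation.

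Ordered by level per transcript length, in FPKM, the DEK libraries ran from Pmp22 through Mbp, Prx, Kcna1 and Mag to Sox10 and S100b. The DEK ranges of Prx (3.30 to 3.99) and Mag (2.52 to 2.89) both lay inside that of Kcna1 (2.21 to 4.30), and that of Sox10 lay inside that of S100b, so these neighbours do not differ beyond their spread. In YFP the order was Pmp22, Mbp, Prx, Mag, S100b, Kcna1 and Sox10. Only Pmp22 stood clear there, since the range of Prx (0.288 to 2.12) held those of Mbp and Mag. Below Pmp22, each gene was thus under 3 FPKM in YFP, and 4 of them were above 2 FPKM in both DEK libraries.

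**Figure D2:**
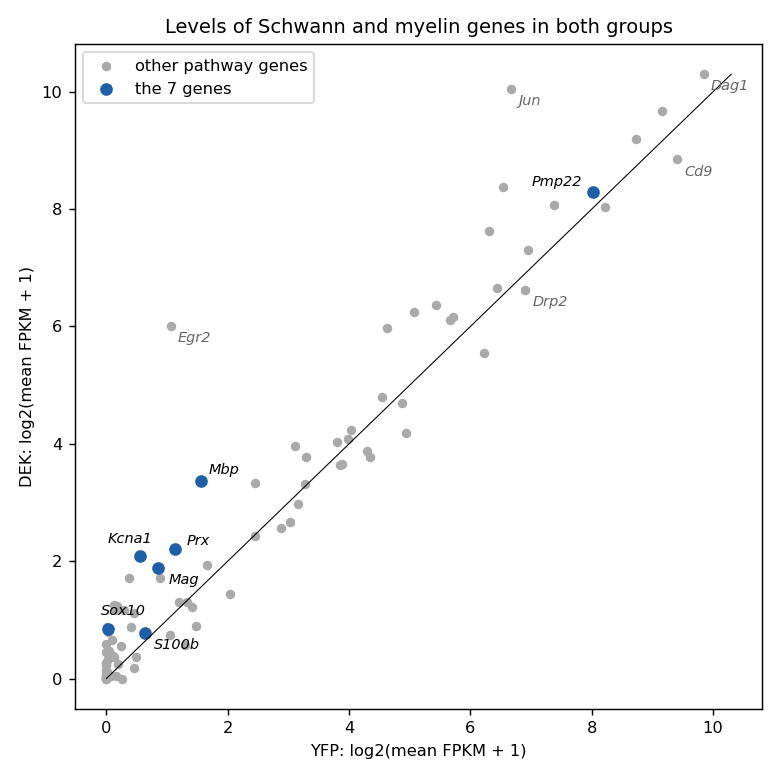
Group means as log2(mean FPKM + 1), YFP on the x axis and DEK on the y axis, for the 7 genes (blue, labelled) and the other genes of the pathway lists (grey, some labelled), with a line of equal levels. Mbp, Kcna1, Prx, Mag and Sox10 lie above the line at low levels, S100b is close to it, and Pmp22 (259 FPKM in YFP, 313 FPKM in DEK) sits at high levels near it.

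Other genes of the Schwann cell and myelin pathway were taken from 6 lists of 85 genes besides the 7, of which 49 were tested. Of these 8 passed as higher in DEK and 1 as lower by limma, and 20 higher and 6 lower had an unadjusted p under 0.05. Over all 12179 tested genes, 4.57% passed as higher and 3.21% as lower, and 3545 had an unadjusted p under 0.05 in either direction. The split of the pathway genes that passed was 7 and 3 after quantile normalization, 6 and 2 with Rn45s removed and 9 and 3 with TMM scaling. The median log2 fold change was 0.22, against 0.05 over all tested genes. The lists were written with earlier results of these data known, and the tested genes are those that passed a filter on level, so the counts describe them only. Of the 49, 4 were under 1 FPKM in both YFP libraries and reached the filter through DEK alone (Mal, Nfatc4, Itga6 and Itgb4), 2 of them among the 8 called, and 1 reached it through YFP alone. With a library left out on the same genes, limma called 0 of these genes higher when YFP replicate 1, YFP replicate 2 or DEK replicate 1 was the omitted library. It called 3 when DEK replicate 2 was, and of the 8 genes Jun alone was among these. At an unadjusted p under 0.05 these were 15, 12, 21 and 17 genes, in the order of the libraries named. Calls fell over the whole table in these fits, with 94, 53, 0 and 139 of the 12179 genes called higher against 557 with all libraries.

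Among sheath proteins besides the 7, Mal rose, 1 of 6 tested, and 0 fell by limma (1 lower at an unadjusted p under 0.05). Mal, a raft protein of myelin and epithelia, was at 0.166 and 0.0986 FPKM in YFP against 1.24 and 1.46 in DEK (log2 fold change 1.05, SE 0.22, limma adjusted p = 0.0425). The DEK libraries were nearly level and above YFP, and Mal reached the filter through them alone. With a library left out Mal did not pass in any of the fits that tested it, with limma adjusted p of 0.103 to 0.159. Cnp, an enzyme of the non-compact sheath, was at 8.36 and 5.95 FPKM in YFP against 5.32 and 5.36 in DEK and did not pass (limma adjusted p = 0.328). Sheath-associated tetraspanins with wide expression were abundant: Cd9 had a log2 fold change of -0.57 (limma adjusted p = 0.0828) and Cd82 of 0.47 (limma adjusted p = 0.113). Cnp was chosen after their values were seen.

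Among regulators besides Sox10, 1 of 10 tested rose, Jun, and 1 fell, Nab2, by limma. At an unadjusted p under 0.05 these were 5 higher and 2 lower. Jun, a factor of Schwann cell injury repair and also an immediate early gene of many cells, was at 114 and 87.1 FPKM in YFP against 1707 and 408 in DEK (log2 fold change 3.05, SE 0.62, limma adjusted p = 0.0418). Its DEK libraries lay far apart. Nab2, a partner of Egr proteins, was at 29.4 and 29.99 FPKM in YFP against 17.6 and 16.6 in DEK (log2 fold change -0.76, SE 0.14, limma adjusted p = 0.0367). Egr2, the factor of myelination that is likewise an immediate early gene, was at 1.41 and 0.761 FPKM in YFP against 121 and 6.01 in DEK. The DEK libraries of Egr2 thus lay far apart and its log2 fold change of 3.83 (SE 1.21, limma adjusted p = 0.106) did not pass. Egr2 was chosen after its values were seen. In Id2, an inhibitor of differentiation factors, DEK replicate 1 was likewise the highest library, with 487 FPKM against 176 in DEK replicate 2 and 101 and 83.0 FPKM in YFP (limma adjusted p = 0.0755). Over all alternatives limma gave adjusted p from 0.000206 to 0.215 for Jun and from 0.0250 to 0.169 for Nab2, and without YFP replicate 1 or 2 neither passed.

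Of the genes of axon to Schwann cell signalling, 3 of 11 tested rose and 0 fell (0 also at an unadjusted p under 0.05 by limma). Itgb4, a laminin receptor chain of the outer Schwann cell membrane and of perineurial, epithelial and endothelial cells, was at 0.315 and 0.280 FPKM in YFP against 2.16 and 2.43 in DEK (log2 fold change 1.34, SE 0.21, limma adjusted p = 0.0231). Its partner chain Itga6 went with 0.177 and 0.00801 FPKM in YFP against 1.76 and 1.03 FPKM in DEK (limma adjusted p = 0.0540). Both chains reached the filter through the DEK libraries alone. The lysophosphatidic acid receptor Lpar1 and the sphingosine phosphate receptor S1pr3 rose with log2 fold changes of 1.35 (limma adjusted p = 0.0206) and 1.28 (limma adjusted p = 0.0347). Lpar1 was at 26.4 and 20.8 FPKM in YFP against 70.5 and 53.2 in DEK, and S1pr3 at 72.9 and 83.4 FPKM in YFP against 152 and 240.3 in DEK. Erbb3, the neuregulin receptor of Schwann cells, was at 0.161 FPKM and listed at 0 in YFP against 0.157 and 0.453 FPKM in DEK. Erbb3 was chosen after its values were seen.

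Genes of immature and non-myelinating Schwann cells gave 0 calls in 6 tested by limma, while 2 higher and 2 lower had an unadjusted p under 0.05. Matn2, a matrix protein, had a log2 fold change of -0.68 (limma adjusted p = 0.0507) and Ncam1, a cell adhesion protein also made in muscle, 0.44 (limma adjusted p = 0.0951). Cdh19, a cadherin of the Schwann lineage, reached 0.601 and 0.395 FPKM in DEK and was listed at 0 in YFP. The neurotrophin receptor Ngfr was at 12.5 and 13.2 FPKM in YFP against 12.3 and 18.3 in DEK (limma adjusted p = 0.564). Cdh19 and Ngfr were chosen after their values were seen. At the node and its flanks, the scaffold genes Ank3 (log2 fold change 0.70, limma adjusted p = 0.0451) and Epb4.1l3 (log2 fold change 0.87, limma adjusted p = 0.0448) rose among 8 tested besides Kcna1, and 0 fell (0 also at an unadjusted p under 0.05). Both serve the membrane skeleton of many cell types. Among enzymes of myelin lipid, fatty acid synthase Fasn rose (log2 fold change 1.17, SE 0.18, limma adjusted p = 0.0210), 1 of 8 tested, while Ugt8a, which starts galactolipid synthesis, was at 0 to 0.813 FPKM over the 4 libraries. Ugt8a was chosen after its values were seen.

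**Figure D3:**
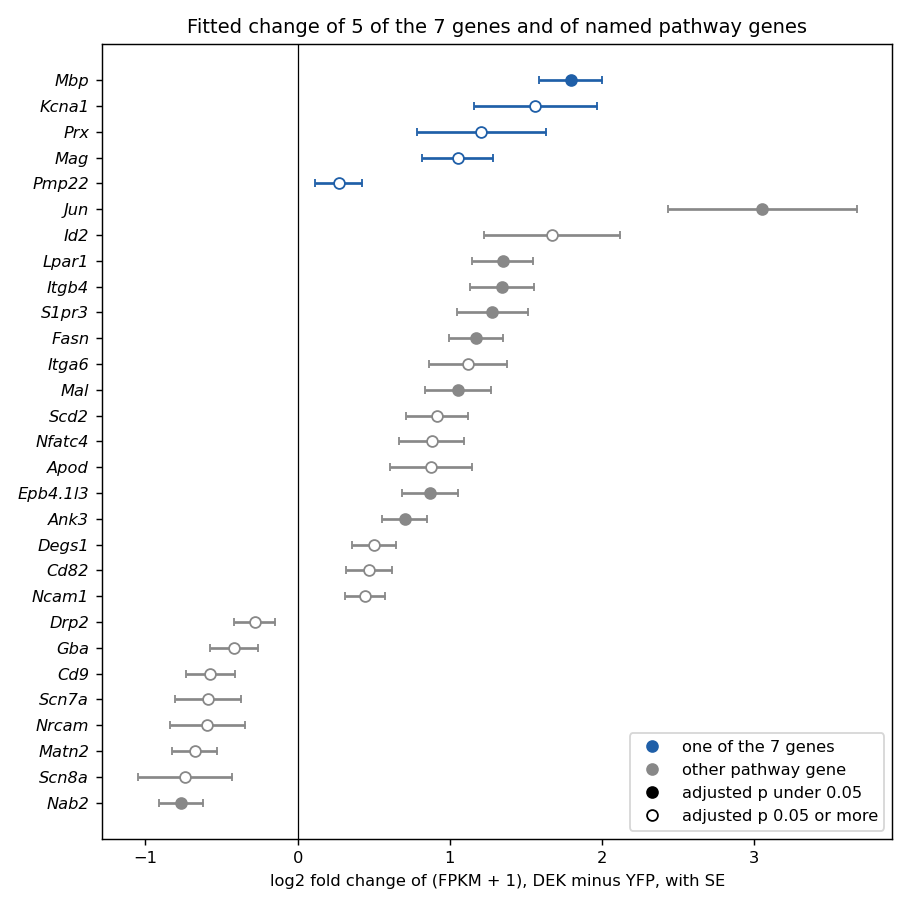
Log2 fold change of (FPKM + 1), DEK minus YFP, with its standard error, for the 5 tested genes of the 7 (blue) and the pathway genes taken by rule (grey). Filled points passed at an adjusted p under 0.05: Mbp among the 5, and Jun, Lpar1, Itgb4, S1pr3, Fasn, Mal, Epb4.1l3, Ank3 and, downward, Nab2 among the others.

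Markers of other cells that could carry these transcripts were read in the same libraries. Genes of central myelin that Schwann cells lack summed to 1.45 and 2.93 FPKM in YFP against 0.350 and 0.237 in DEK, with 0 of 8 above YFP in both DEK libraries. Mog, Mobp and Opalin were listed at 0 in each library. Olig1 was at 1.18 and 2.08 FPKM in YFP and listed at 0 in DEK (limma adjusted p = 0.0358), and it reached the filter through YFP alone. Without Olig1 the list summed to 0.278 and 0.841 FPKM in YFP against 0.350 and 0.237 in DEK, and the groups overlapped. Of 12 genes of neurons and axons 0 reached the filter, and Nefl, Nefm, Syt1, Chat and Slc18a3 were listed at 0 in each library. Their sum was 1.63 and 2.32 FPKM in YFP against 2.15 and 1.17 in DEK. Of 8 melanocyte genes 1 was tested and 0 passed, with 0 at an unadjusted p under 0.05, and Dct and Tyr were listed at 0 in each library. That list summed to 1.80 and 0.986 FPKM in YFP against 3.13 and 3.14 in DEK. Most of that sum was the tested gene Pmel, at 1.46 and 0.660 FPKM in YFP against 2.00 and 2.12 in DEK (limma adjusted p = 0.193). Of the 8 genes, 3 were above YFP in both DEK libraries and 1 was below.

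Of 12 genes of perineurial cells and endoneurial fibroblasts 3 rose by limma, among them Cldn1, a tight junction protein at 0.459 FPKM and listed at 0 in YFP against 5.24 and 2.92 FPKM in DEK (limma adjusted p = 0.0240). The others were Itgb4 and the chemokine Ccl9, and each of these 3 reached the filter through DEK alone. The list summed to 64.5 and 65.0 FPKM in YFP against 182 and 77.6 in DEK. Most of the sum of DEK replicate 1 was Sox9, at 121.5 FPKM there against 29.9 in DEK replicate 2. In YFP Sox9 was at 23.6 and 24.9 FPKM, and it did not pass (limma adjusted p = 0.211). Sox9 was chosen after its values were seen. Endothelial markers rose in 9 of 12 genes, with sums of 78.7 and 75.6 FPKM in YFP against 179 and 158 in DEK. All 9 were under 1 FPKM in both YFP libraries and reached the filter through DEK alone, among them Pecam1, an adhesion protein of endothelium, at 0.745 and 0.579 FPKM in YFP against 15.3 and 12.1 in DEK (limma adjusted p = 0.00353). Kdr and Flt1 were listed at 0 in both YFP libraries. The 3 that did not pass made up most of the YFP sum, Tek at 55.9 and 56.7 FPKM, Eng at 9.60 and 13.6 FPKM, and Vwf at 10.6 and 3.57 FPKM. Macrophage markers rose in 6 of 12 genes, with sums of 4.46 and 28.9 FPKM in YFP against 209 and 204 in DEK. Of these 6, 5 reached the filter through DEK alone. C1qa, C1qb, C1qc and Adgre1 were listed at 0 in both YFP libraries, while Cd74 was at 0.701 and 8.87 FPKM there. Fibro-adipogenic markers went both ways, with 5 of 10 higher and 2 lower and sums of 1864 and 1545 FPKM in YFP against 1838 and 1995 in DEK. Of the 5 higher, Smoc2 reached the filter through DEK alone. Of pericyte and smooth muscle markers 3 of 10 rose, with sums of 738 and 759 FPKM in YFP against 617 and 908 in DEK, and Higd1b was listed at 0 in both YFP libraries. Of these 3, Myh11 and Higd1b reached the filter through DEK alone. Myofibre genes gave 0 calls in 5 tested by limma, while 2 higher and 1 lower had an unadjusted p under 0.05, and sums of 103 and 89.5 FPKM in YFP against 113 and 64.4 in DEK.

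Satellite cell identity genes gave 0 calls in 12 tested by limma, while 4 higher and 1 lower had an unadjusted p under 0.05, and summed to 3317 and 3138 FPKM in YFP against 3019 and 3548 in DEK. The sums of the endothelial, macrophage, perineurial and melanocyte lists were higher in both DEK libraries than in both YFP libraries. Those of the pericyte and smooth muscle list overlapped between the groups. Endothelial calls numbered 7, 3, 0 and 5 and macrophage calls 4, 4, 0 and 1 when YFP replicate 1 or 2 or DEK replicate 1 or 2, in this order, was omitted, beside 94, 53, 0 and 139 calls in that direction over all tested genes. At an unadjusted p under 0.05 by limma, 9 to 11 endothelial and 6 to 8 macrophage genes were higher in these fits. Without DEK replicate 1 no gene of the table passed. In the other fits with a library left out, the perineurial and pericyte lists also lost most or all of their calls. The fibro-adipogenic list kept most of its upward calls there. The part of such cells in the values of the 7 genes was not tested.

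**Figure D4:**
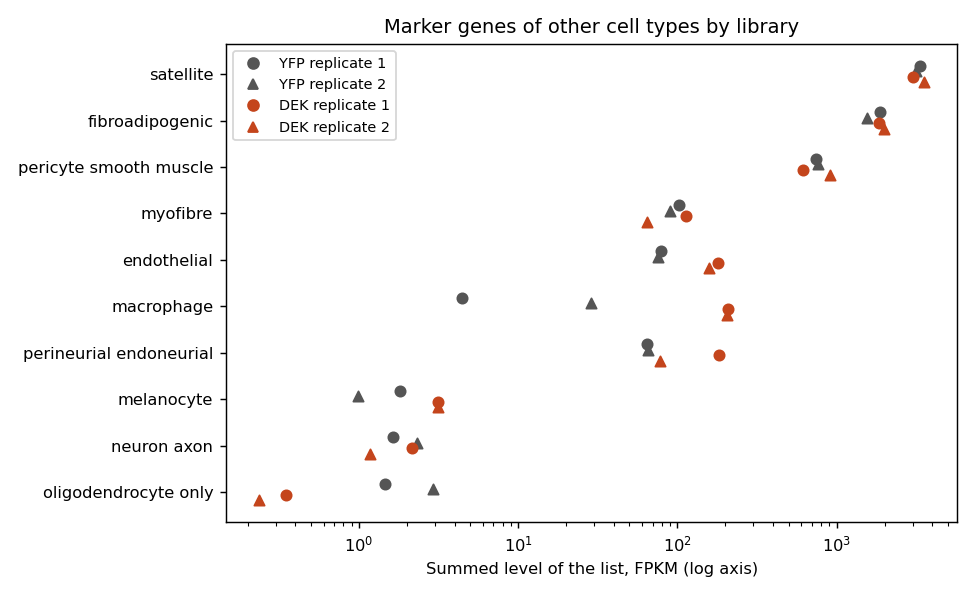
Summed FPKM of each marker list (log x axis) with a symbol per library, circles for replicate 1 and triangles for replicate 2, YFP in grey and DEK in red. The endothelial, macrophage, perineurial and melanocyte sums are higher in both DEK libraries. The satellite sums overlap between the groups, and the neuron and axon sums lie between 1.17 and 2.32 FPKM.

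The tested genes with the profile most like each of the 5 were found by the distance between log2(FPKM + 1) profiles over the 4 libraries, each centred on its mean, among 8611 genes with a mean of at least 5 FPKM. For Kcna1 the nearest was Jam2, a junction protein of endothelium (distance 0.154), at 2.70 and 1.02 FPKM in YFP against 10.5 and 5.83 in DEK. For Prx, the second nearest after the predicted gene Gm10509 was Vwf, the clotting factor of endothelium (distance 0.208), at 10.6 and 3.57 FPKM in YFP against 18.5 and 17.5 in DEK. Mbp was nearest to the small nucleolar RNA Snora78 (distance 0.159) and Mag to Aatf (distance 0.0701). Within a distance of 0.2 of Pmp22 lay 874 genes, against 34 for Mag, 2 for Mbp, 1 for Kcna1 and 1 for Prx.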

How the data were processed

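Polyadenylated RNA of sorted, fixed muscle stem cells was read on paired ends after low-input cDNA synthesis, per the labels' protocols. The tools named in the submitters' processing notes are StringTie 1.3.3, STAR 2.5.3a and R 3.4.1, with mm9 as the build. Annotation and filters are not given in the sources used here. The authors deposited 1 value per symbol and library, taken as FPKM from the values (not whole, with unequal totals), though TPM is possible. Each of the 4 value columns was used. The table holds no counts, so read depth is unknown and no counting intervals are given.

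Values were fitted as log2(FPKM + 1) with limma 3.58.1 in R 4.3.3, with a variance trend, no covariates and two-sided tests, on genes with at least 1 FPKM in at least 2 libraries. The fit was also run on simulated data with large changes set in advance, which does not speak to small changes near 1 FPKM. TMM factors were computed on the FPKM values without weights (trims of 30 and 5%). Named genes are the 7, and from each list the 4 others with the smallest p (3 for lists of other cell types), not all of which are described. Marker genes named because they are listed at 0 or fill a sum (such as Kdr, Flt1, C1qa, C1qc, Adgre1, Tek, Eng and Cd74) were chosen after their values were seen. Some genes are not reported here and were left out of the lists and their counts, after their values were seen. The nearest 2 profiles per gene were also taken. The genes, the 16 lists, the tests and the alternatives were chosen with earlier results of these data known. Promoter motifs were searched in 250 bases. The replicate numbers are not said to pair the libraries.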

Additional observations from a re-analysis of the deposited data

How the results depend on the processing

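All fitted log2 fold changes of Mbp, Pmp22, Mag, Kcna1 and Prx stayed positive in each alternative that tested them. The number of the 7 genes called higher was 1 in the reported fit. It was 2 with the replicate number as a block (Mbp and Kcna1), and 2 with an added value of 5, with TMM factors and with limma without a trend (Mbp and Mag each time). With no low filter it was 1, but Sox10 took the place of Mbp. Leaving out a library gave 0 to 1, and it was 1 only without DEK replicate 2 with the filter redone on 3 libraries (Mbp adjusted p = 0.0155). On that filter Mbp had an adjusted p of 0.0551 without YFP replicate 1, 0.0744 without YFP replicate 2 and 0.0517 without DEK replicate 1.

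Of the other pathway genes, 8 were called higher and 1 lower in the reported fit. Called higher were 5 with an added value of 0.1 and 2 with no low filter. With a library left out the number was 0 to 6, among them 3 without DEK replicate 2 on the same genes, and 4 without DEK replicate 1 and 6 without DEK replicate 2 with the filter redone. Called lower were 0 with the replicate block and with no low filter (5 each at an unadjusted p under 0.05 by limma), 2 at 5 FPKM or more and with Rn45s removed, 3 with TMM factors or quantile normalization, and 0 to 1 with a library left out. With Rn45s removed the median log2 fold change of all tested genes went from 0.05 to -0.07. The cause of these changes was not tested. The deviations of same-numbered libraries correlated at 0.0635 across genes, and the block moved the calls over all genes from 948 to 618. Whether same-numbered libraries were handled together is not given, and a correlation across genes cannot show it. Where 1 library of a group remains, its spread is assumed equal to that of the other group. At levels near 1 FPKM, values of single libraries such as YFP replicate 2, with 0 for 3 of the 7 genes, limit what can be seen.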
